A study of Mus musculus with 11 samples.

Results

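Mitochondria fuse and divide continuously, and their number and content are set by a transcriptional programme. The 10 genes described here include Mff, Fis1 and Dnm1l for fission, Opa1, Mfn1 and Mfn2 for fusion, and Ppargc1a, Nrf1 and Tfam for biogenesis. Also in the set is Higd2a, an inner membrane protein of the HIG1 family. Together these are 10 named genes of 18194 with a probe set of their own. The set was chosen by measured values: Mff had shown one of the smallest p-values for maternal diet over both injections. Every diet difference below is therefore a description without a test, and the tests concern streptozotocin (STZ) and its difference between the diets.

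In fission, the adaptor protein Mff sits in the outer mitochondrial membrane and recruits the cytosolic GTPase Drp1, the product of Dnm1l, which constricts the organelle. Fusion of outer membranes uses the mitofusins Mfn1 and Mfn2, and fusion of inner membranes and the shape of the cristae depend on Opa1. PGC-1α (Ppargc1a) coactivates nuclear factors such as NRF1, which drive genes of the respiratory chain and Tfam. The Tfam protein packages mitochondrial DNA and acts in its transcription. In β cells, mitochondrial ATP couples glucose to insulin release, and acinar cells use it for enzyme synthesis and secretion.

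RNA came from whole pancreas of female Balb/C mice aged 30 days, hybridised to Affymetrix mouse arrays. All dams ate the control diet from the birth of their pups on. During gestation the diet held 20% protein (control) or 8% protein at equal calories (low protein), and pups received STZ at 35 mg per kg in citrate buffer, or vehicle alone (sham), on each of days 1 to 5. STZ is a toxin taken up by β cells. Control offspring gave 3 sham arrays and 2 STZ arrays (numbered 1 and 3; number 2 was not analysed here), and low protein offspring gave 3 arrays with each injection. The labels call the samples biological replicates and name no dam or litter, so litter and diet cannot be told apart.

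Array medians lay between 7.92 and 7.97, and the Pearson correlation of 2 arrays was 0.9828 to 0.9946 inside a group and 0.9778 to 0.9944 across groups. Control sham 1 and low protein STZ 1 lay at the ends of the first principal component (33.9% of the variance). The tissue label held: acinar markers averaged 14.77 over 8 measured genes. Their mean per array lay at 14.85 to 15.07 in the 5 control diet arrays and at 14.34 to 14.71 in the 6 low protein arrays, with 8 of 8 genes lower in low protein. β-cell markers (7 measured genes; Slc2a2 and Slc30a8 under the limit for dim probe sets) lay at 9.78 to 10.25 in control sham, 8.87 to 8.90 in control STZ, 8.82 to 9.44 in low protein sham and 8.81 to 9.00 in low protein STZ. Lymphocyte markers lay at 7.62 to 7.84 over all arrays of the control diet and at 7.70 to 7.79 in low protein. Endothelial markers lay at 8.52 to 8.76 in control and 8.28 to 8.49 in low protein arrays, with 4 of 4 genes lower. These ranges did not overlap, although the gap between 8.49 and 8.52 was narrow. β-cell (7 of 7), stromal (5 of 5), other islet (3 of 3) and adipocyte markers (4 of 4, with Adipoq and Cidec under the limit for dim probe sets) were also lower on average in low protein, with ranges that overlapped. Elsewhere the genes were mixed: 3 of 4 duct, 4 of 7 lymphocyte, 2 of 4 macrophage, 2 of 4 skeletal muscle and 2 of 4 intestinal markers were lower. Counts of lower marker genes stand without a share over all genes, so nothing is read from them. In STZ animals the β-cell markers averaged 8.89 in both diets. In whole tissue, fewer cells of a type and less RNA per cell cannot be told apart.

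The members had 30 probe sets, short groups of probes that each report 1 log2 signal. Of these, 24 had a mean above 6.87, the limit for dim probe sets, and were tested; every member kept at least 1. The other 6 averaged between 4.68 and 6.34: 3 of Ppargc1a, 2 of Dnm1l and 1 of Mff. A difference of 1 on the log2 scale is a 2-fold difference in signal, and signals of different probe sets cannot be ranked against each other.

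The stretches before the gene starts of 6 members are shown. Mff and Higd2a carry the widest diet differences and hold no motif match. Opa1, Tfam, Mfn1 and Fis1 are the members with a motif match. Dnm1l, Mfn2, Ppargc1a and Nrf1 held no match and are not shown. NRF1, whose motif is among those searched, is itself a member. Each stretch is the 100 bases upstream of the first start that RefSeq lists for the gene (GRCm38.p6), read along the gene's strand. Capitals mark 2 motifs of biogenesis factors searched on both strands: the NRF1 palindrome (the capitals of the Opa1 line) and the GABPA (NRF-2) motif CCGGAAGT.
Mff, chr1:82724790-82724889, plus strand: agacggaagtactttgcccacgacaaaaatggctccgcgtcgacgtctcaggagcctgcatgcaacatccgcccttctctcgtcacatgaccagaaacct
Higd2a, chr13:54590131-54590230, plus strand: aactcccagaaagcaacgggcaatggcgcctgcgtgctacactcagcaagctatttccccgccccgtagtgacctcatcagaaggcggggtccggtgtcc
Opa1, chr16:29579234-29579333, plus strand: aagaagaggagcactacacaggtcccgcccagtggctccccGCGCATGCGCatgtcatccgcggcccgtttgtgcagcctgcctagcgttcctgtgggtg
Tfam, chr10:71238045-71238144, minus strand: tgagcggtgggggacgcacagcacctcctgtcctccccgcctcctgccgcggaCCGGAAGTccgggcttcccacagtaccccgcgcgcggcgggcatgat
Mfn1, chr3:32529382-32529481, plus strand: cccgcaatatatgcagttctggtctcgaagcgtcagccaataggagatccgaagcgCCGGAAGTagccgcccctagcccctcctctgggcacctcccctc
Fis1, chr5:136953175-136953274, plus strand: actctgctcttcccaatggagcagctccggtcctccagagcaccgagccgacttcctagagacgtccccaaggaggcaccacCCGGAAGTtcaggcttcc

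In windows from 250 bases before to 50 after each listed start, the NRF1 letters occurred in 1 of 16 member windows (Opa1) and in 0.971% of all 32851 windows. The GABPA letters occurred in 4 member windows of 3 genes (Fis1, Mfn1 and Tfam) and in 3.89% of all windows. A match is a run of letters and not a measured binding site.

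Mff, the fission adaptor, had the lowest signal in low protein STZ pancreas and the highest in control sham pancreas at each of its 3 tested probe sets. The brightest, 1456736_x_at, read 11.20, 11.24 and 11.23 in control sham, 10.83 and 11.10 in control STZ, 10.81, 10.59 and 10.44 in low protein sham, and 10.25, 10.36 and 10.50 in low protein STZ arrays. Every low protein array was thus below the lowest control diet array, although the gap between 10.81 and 10.83 was narrow. The diet difference over both injections was -0.60 ± 0.08 (SE of the fit), a 1.52-fold lower signal, with -0.61 ± 0.11 in sham and -0.60 ± 0.12 in STZ animals.

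The second Mff probe set, 1456582_x_at, read 8.58, 8.74 and 8.73 in control sham, 8.37 and 8.30 in control STZ, 8.30, 8.30 and 8.06 in low protein sham, and 8.02, 8.00 and 8.20 in low protein STZ arrays. Low protein arrays were below control arrays within each injection, with ranges that met at 8.30 when injections were joined. Its diet difference was -0.36 ± 0.07, from -0.46 ± 0.09 in sham to -0.26 ± 0.10 in STZ animals.

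The third, 1451572_a_at, read 9.00, 8.86 and 9.21 in control sham, 9.00 and 8.77 in control STZ, 8.79, 8.65 and 8.89 in low protein sham, and 8.36, 8.58 and 9.00 in low protein STZ arrays. Here the diets overlapped, since low protein STZ 3 reached the control range, and the diet difference was -0.24 ± 0.12. The fourth, 1457371_at, was dim and flat, between 6.01 and 6.17 on every array. The suffix x marks sets in which some probes also match other transcripts, and the suffix a marks sets whose probes match variant transcripts of 1 gene. The size of the Mff diet difference thus ran from -0.60 and -0.36 at the x sets to -0.24 at the a set, and the part of other transcripts in it was not tested.

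**Figure D1:**
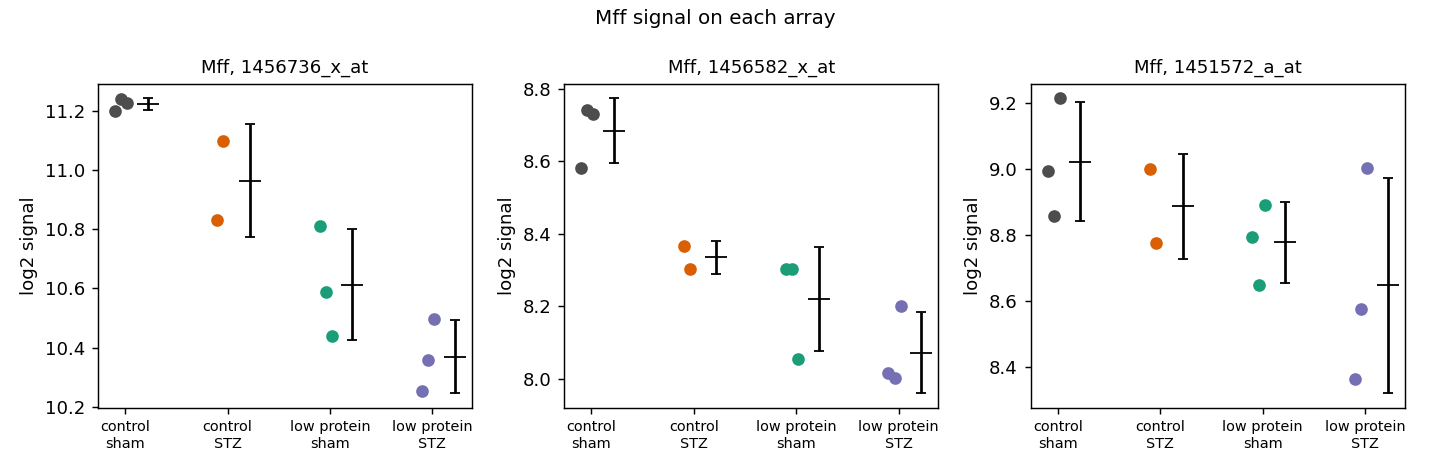
Log2 signal of Mff on each of the 11 arrays at its 3 tested probe sets, with 1 point per array and the group mean ± SD in black beside the points. At 1456736_x_at the 6 low protein arrays (10.25 to 10.81) lie below the 5 control diet arrays (10.83 to 11.24), and at 1451572_a_at the diets overlap.

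Over all tested probe sets the groups did not overlap, with low protein lower, in 9.68% for sham, 15.6% for STZ and 2.19% for both injections joined. Among the 24 member probe sets the same counts were 2 for sham (both Mff), 6 for STZ and 1 for both joined (Mff). The 6 in STZ animals were the Mff x sets, Fis1 1416764_at, Higd2a and Nrf1 1420978_at and 1424787_a_at. In the other direction, 1 member probe set (Ppargc1a 1437751_at) was higher in low protein sham without overlap, against 5.32% of all probe sets. The rule chose Mff by its diet values, so nothing is read from these counts.

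Among the technical measures, the hybridisation controls also moved with diet. These foreign transcripts, added to each sample, averaged 11.34 to 11.89 in control diet arrays and 10.88 to 11.50 in low protein arrays. With them as a covariate the diet difference of Mff 1451572_a_at was 0.00, that of 1456736_x_at -0.54 and that of 1456582_x_at -0.31. Cyclic loess scaling gave -0.44 for 1456736_x_at, and the diets then overlapped. The 3′ minus 5′ signal of the Gapdh and β-actin controls, a measure of RNA integrity, ranged from 1.08 to 1.93 in control diet and from 1.22 to 1.91 in low protein arrays. The acinar, endothelial, stromal, other islet and adipocyte markers given above averaged lower in low protein arrays too. β-cell markers were lower with low protein in sham animals (9.96 in control, 9.12 in low protein) and averaged 8.89 in both STZ groups. The part of all these markers in the Mff values was not tested.

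**Figure D2:**
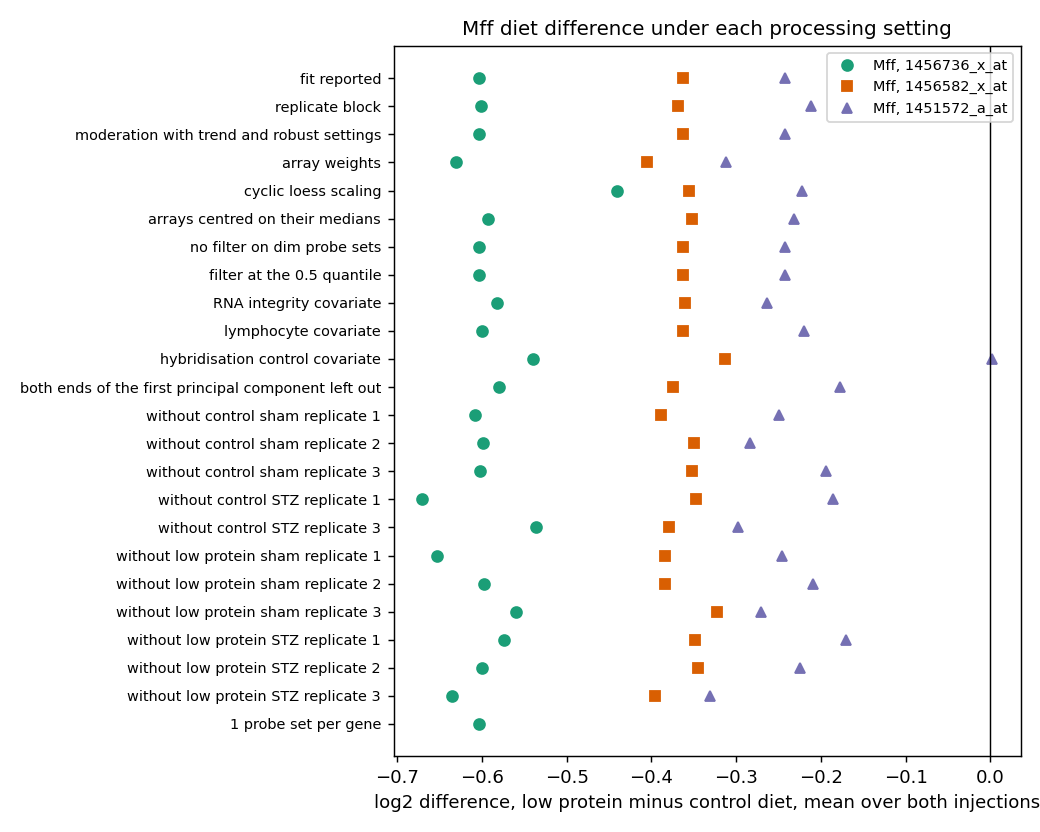
Diet difference of Mff (log2, low protein minus control, mean over both injections) at 3 probe sets under the fit reported and each alternative setting, including each array left out. The values of 1456736_x_at run from -0.67 to -0.44, those of 1456582_x_at from -0.41 to -0.31, and those of 1451572_a_at from -0.33 to 0.00, the last with the hybridisation controls as a covariate.

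Genes with the profile nearest to Mff 1456736_x_at were found by the root mean square difference of log2 signals over the 11 arrays, each probe set centred on its own mean. They were Degs1, a sphingolipid desaturase (0.114), the complex I subunits Ndufv3 (0.120) and Ndufc2 (0.122), Yif1a, a protein of ER-to-Golgi transport (0.125), and Gcsh of the mitochondrial glycine cleavage system (0.127). Their diet differences lay between -0.62 (Ndufv3) and -0.46 (Ndufc2). These genes were picked for their likeness to Mff on the same arrays, so diet differences near that of Mff follow from the choice.

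STZ was the tested factor. In none of the 4 STZ comparisons did a member probe set pass with limma after adjustment over all 27249 probe sets, and 0% of all probe sets passed. At an unadjusted p under 0.05, 4 of 24 member probe sets were called in the control diet against 4.04% of all, and 2 of 24 in the low protein diet against 2.33% of all. The mean over both diets gave 2 of 24 against 3.10%, and the difference of the STZ effects gave 5 of 24 against 3.49%. With arrays left out singly the control diet count ranged from 3 to 5 and that of the difference from 4 to 6. The low protein count ranged from 0 to 4: 0 without low protein sham 1 or low protein STZ 1, 1 without any one control sham array or low protein sham 2, and 4 without low protein STZ 3. The count for the mean over both diets ranged from 2 to 5, with 4 without control sham 2 and 5 without low protein STZ 3. The shares over all probe sets are not given for fits with an array left out, so nothing is read from these ranges. Groups did not overlap in the control diet for 3 member probe sets with STZ lower and 4 with STZ higher, against 7.77% and 8.51% of all probe sets. In the low protein diet 2 were lower without overlap, against 4.79%. The β-cell markers given above were lower after STZ in the control diet and overlapped between injections in the low protein diet, and their part in these values was not tested. The widest member difference in these comparisons was -0.52 on the log2 scale (1.43-fold, Higd2a). A p that missed the threshold does not show that the groups were alike.

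The mean Mff signal after STZ was below the sham mean in both diets at each of its 3 tested probe sets, and none passed after adjustment. In the low protein diet the sham and STZ arrays overlapped at each set. For 1456582_x_at the difference was -0.35 ± 0.10 in the control diet, with neither STZ array reaching the sham range, and -0.15 ± 0.09 in the low protein diet. Over both diets it was -0.25 ± 0.07 with limma (unadjusted p = 0.00461, adjusted p = 1). For 1456736_x_at the differences were -0.26 ± 0.12 and -0.24 ± 0.11 in these diets, and -0.25 ± 0.08 over both with limma (unadjusted p = 0.0118, adjusted p = 1). Without low protein sham 1 the low protein value was -0.14. For 1451572_a_at the mean over both diets was -0.13 ± 0.12, with a 95% interval from -0.39 to 0.13. The p for diet that chose Mff rests on the same spread between arrays as these p-values. The difference of the STZ effects between the diets was 0.01 ± 0.16 at 1456736_x_at (95% interval -0.35 to 0.38) and 0.20 ± 0.14 at 1456582_x_at (-0.10 to 0.51).

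Fis1, a small outer membrane protein named for mitochondrial fission, differed in opposite directions after STZ in the 2 diets at 1 of its 2 probe sets. Probe set 1416764_at read 9.39, 9.21 and 9.22 in control sham, 9.68 and 9.49 in control STZ, 9.32, 9.34 and 9.26 in low protein sham, and 8.95, 9.30 and 9.12 in low protein STZ arrays. Both control STZ arrays were above all other arrays, and the low protein groups overlapped by 1 array. The STZ difference was 0.31 ± 0.11 in the control diet and -0.19 ± 0.10 in the low protein diet. The difference between these effects was -0.50 ± 0.15 with limma (95% interval -0.83 to -0.17, unadjusted p = 0.00702, adjusted p = 1). The other set, 1443819_x_at, ranged from 9.04 to 9.50 and gave -0.04 ± 0.16 (-0.41 to 0.32) for the same difference. The 2 sets of Fis1 thus do not show the same pattern.

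Higd2a, which takes part in assembling cytochrome oxidase and respiratory supercomplexes, had a single probe set. It read 10.70, 10.41 and 10.70 in control sham, 10.78 and 10.83 in control STZ, 10.61, 10.46 and 10.34 in low protein sham, and 10.02, 10.35 and 10.10 in low protein STZ arrays. The control STZ arrays were the highest of all, and low protein STZ held the lowest array and overlapped low protein sham by 1 array. The STZ difference was 0.20 ± 0.13 in the control diet and -0.31 ± 0.11 in the low protein diet, with a difference between them of -0.52 ± 0.17 with limma (95% interval -0.89 to -0.14, unadjusted p = 0.0116, adjusted p = 1). With array weights these were -0.17 for the low protein diet and -0.34 for the difference. As a description, its diet difference was -0.13 ± 0.11 in sham and -0.65 ± 0.13 in STZ animals.

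Ppargc1a, the coactivator at the head of the biogenesis programme, was lowest in control sham pancreas. Its brightest probe set, 1437751_at, read 7.61, 7.72 and 7.44 in control sham, 7.99 and 8.04 in control STZ, 8.09, 7.86 and 7.76 in low protein sham, and 7.67, 7.79 and 8.04 in low protein STZ arrays. Control sham lay below control STZ and below low protein sham without overlap, while the low protein groups overlapped. The STZ difference was 0.42 ± 0.13 in the control diet with limma (unadjusted p = 0.00926, adjusted p = 1) and -0.07 ± 0.12 in the low protein diet. The difference between these effects was -0.50 ± 0.18 with limma (95% interval -0.89 to -0.10, unadjusted p = 0.0191, adjusted p = 1). Probe set 1460336_at gave the same signs with wider errors, 0.28 ± 0.28 and -0.10 ± 0.25, with arrays between 7.02 and 7.94. The other 3 sets were dim.

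Mfn1, an outer membrane fusion GTPase, had 3 tested probe sets with mixed signs. The set with the STZ difference, 1426773_at, read 7.27, 7.09 and 7.61 in control sham, 7.73 and 7.58 in control STZ, 7.69, 7.77 and 7.59 in low protein sham, and 7.52, 7.42 and 7.58 in low protein STZ arrays. Control sham 3 reached into the control STZ range, whereas low protein STZ lay just below low protein sham. The STZ difference was 0.33 ± 0.13 in the control diet, 0.21 without control sham 2, and -0.18 ± 0.12 in the low protein diet. The difference between these effects was -0.51 ± 0.18 with limma (95% interval -0.91 to -0.11, unadjusted p = 0.018, adjusted p = 1).

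The brightest Mfn1 set, 1449697_s_at, read 9.39, 8.81 and 9.10 in control sham, 9.03 and 9.02 in control STZ, 8.67, 9.04 and 8.85 in low protein sham, and 8.76, 8.84 and 9.11 in low protein STZ arrays. The 4 groups overlapped, and the difference of the STZ effects was 0.13 ± 0.23. The third set, 1419997_at, ranged from 8.03 to 8.48 and gave 0.20 ± 0.17.

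**Figure D3:**
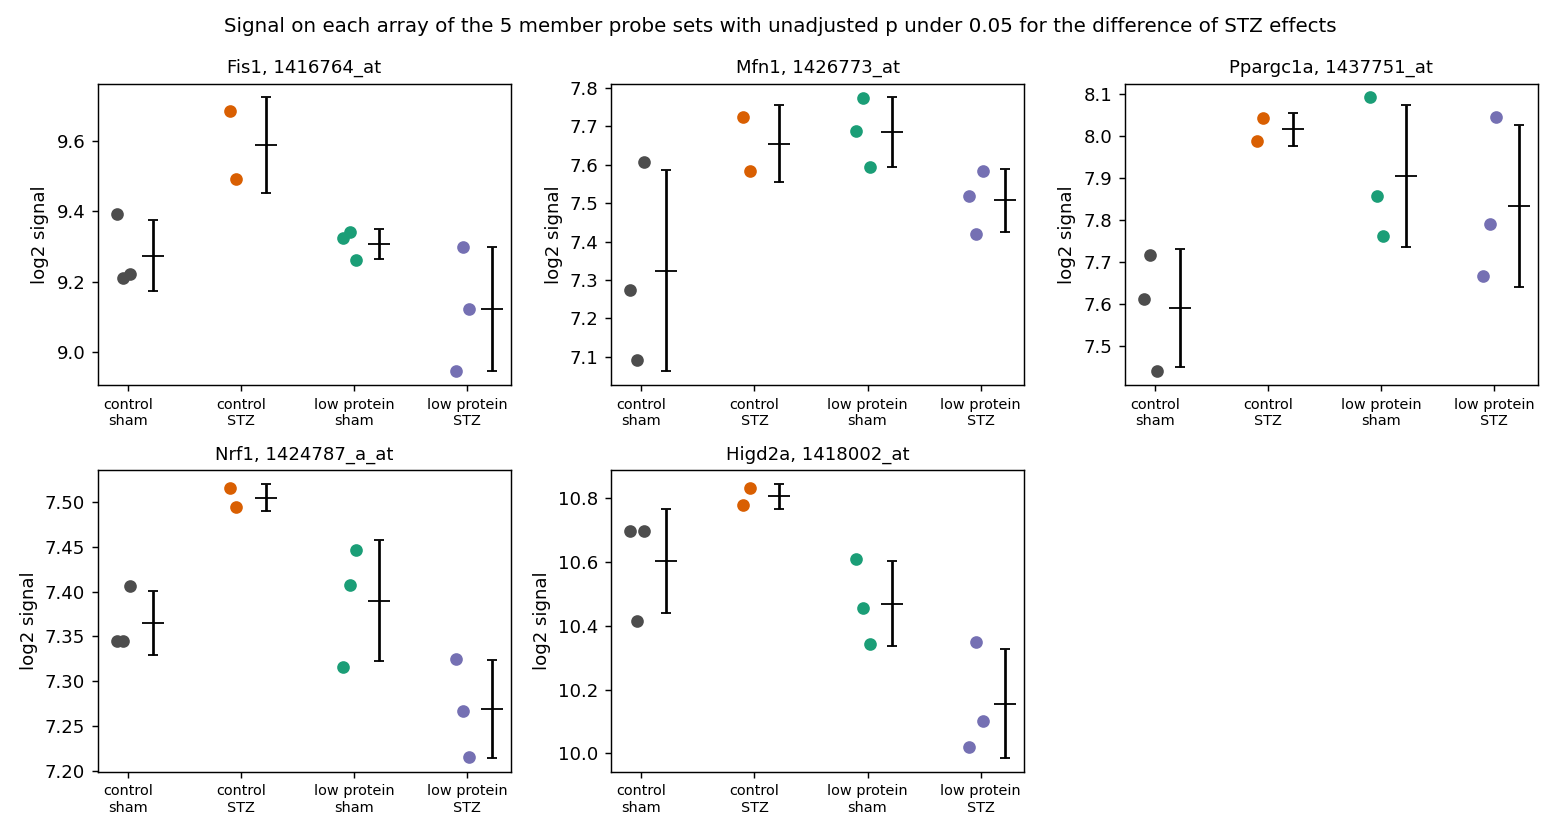
Log2 signal on each of the 11 arrays for the 5 member probe sets (of Fis1, Mfn1, Ppargc1a, Nrf1 and Higd2a) with an unadjusted p under 0.05 for the difference of the STZ effects, with the group mean ± SD in black. In the control diet the STZ mean is above the sham mean in each panel, and in the low protein diet it is below; none passed after adjustment.

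Nrf1, the transcription factor, had 4 tested probe sets. The brightest, 1434627_at, read 9.93, 10.25 and 10.03 in control sham, 10.03 and 9.87 in control STZ, 10.09, 9.96 and 10.10 in low protein sham, and 10.01, 10.04 and 10.00 in low protein STZ arrays. All groups overlapped, and the STZ difference over both diets was -0.08 ± 0.07 (95% interval -0.23 to 0.07). Set 1424787_a_at read 7.34, 7.34 and 7.41 in control sham, 7.52 and 7.49 in control STZ, 7.32, 7.41 and 7.45 in low protein sham, and 7.32, 7.27 and 7.22 in low protein STZ arrays. Control STZ was the highest group there, and the difference of the STZ effects was -0.26 ± 0.10 with limma (unadjusted p = 0.0232, adjusted p = 1). Sets 1420978_at and 1445914_at gave -0.11 ± 0.11 and 0.26 ± 0.14, so the Nrf1 sets were of both signs.

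Tfam had 2 tested probe sets. The brighter, 1448224_at, read 8.47, 8.15 and 8.59 in control sham, 8.46 and 8.05 in control STZ, 8.23, 8.12 and 8.21 in low protein sham, and 7.76, 7.84 and 8.27 in low protein STZ arrays. Neighbouring groups overlapped, with the lowest arrays in low protein STZ, and the STZ difference over both diets was -0.19 ± 0.12 (95% interval -0.45 to 0.07). The other set, 1456215_at, gave 0.01 ± 0.07 and ranged from 7.90 to 8.32. For diet the sets pointed in opposite directions, at -0.26 ± 0.12 and 0.14 ± 0.07.

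For Dnm1l, the core fission GTPase, groups overlapped at both tested sets. Set 1428087_at read 8.95, 8.72 and 8.77 in control sham, 9.10 and 8.65 in control STZ, 8.81, 8.71 and 9.03 in low protein sham, and 8.81, 8.45 and 9.08 in low protein STZ arrays. Control STZ 1 was the highest array and low protein STZ 2 the lowest, and the STZ difference over both diets was -0.00 ± 0.12 (95% interval -0.28 to 0.27). The second tested set, 1428086_at, ranged from 8.16 to 9.03 and gave -0.10 ± 0.15. The diet differences of these sets were -0.03 ± 0.12 and -0.06 ± 0.15, and whether they differed from those of Mff was not tested.

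Opa1 1434890_at, the brightest of 3 sets, read 9.17, 8.98 and 9.01 in control sham, 8.70 and 8.81 in control STZ, 8.85, 9.13 and 8.81 in low protein sham, and 8.55, 8.80 and 9.11 in low protein STZ arrays. Both control STZ arrays were below the control sham arrays, while the low protein groups overlapped. Its STZ difference was -0.30 ± 0.15 in the control diet and -0.11 ± 0.14 in the low protein diet. Set 1449214_a_at had the widest range of the tested member probe sets, 6.42 to 7.63, and an STZ difference of the opposite sign in the control diet (0.41 ± 0.31). Set 1418768_at gave -0.07 ± 0.19.

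Mfn2, which also tethers mitochondria to the endoplasmic reticulum, showed small differences at both sets. Probe set 1448131_at read 8.12, 7.95 and 7.65 in control sham, 7.71 and 7.83 in control STZ, 7.80, 7.83 and 7.84 in low protein sham, and 7.62, 7.98 and 8.04 in low protein STZ arrays. The groups overlapped, and the STZ difference over both diets was -0.04 ± 0.10 (95% interval -0.26 to 0.18). Set 1451900_at gave -0.06 ± 0.09 (-0.26 to 0.14), and the diet differences were 0.01 ± 0.10 and 0.08 ± 0.09.

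**Figure D4:**
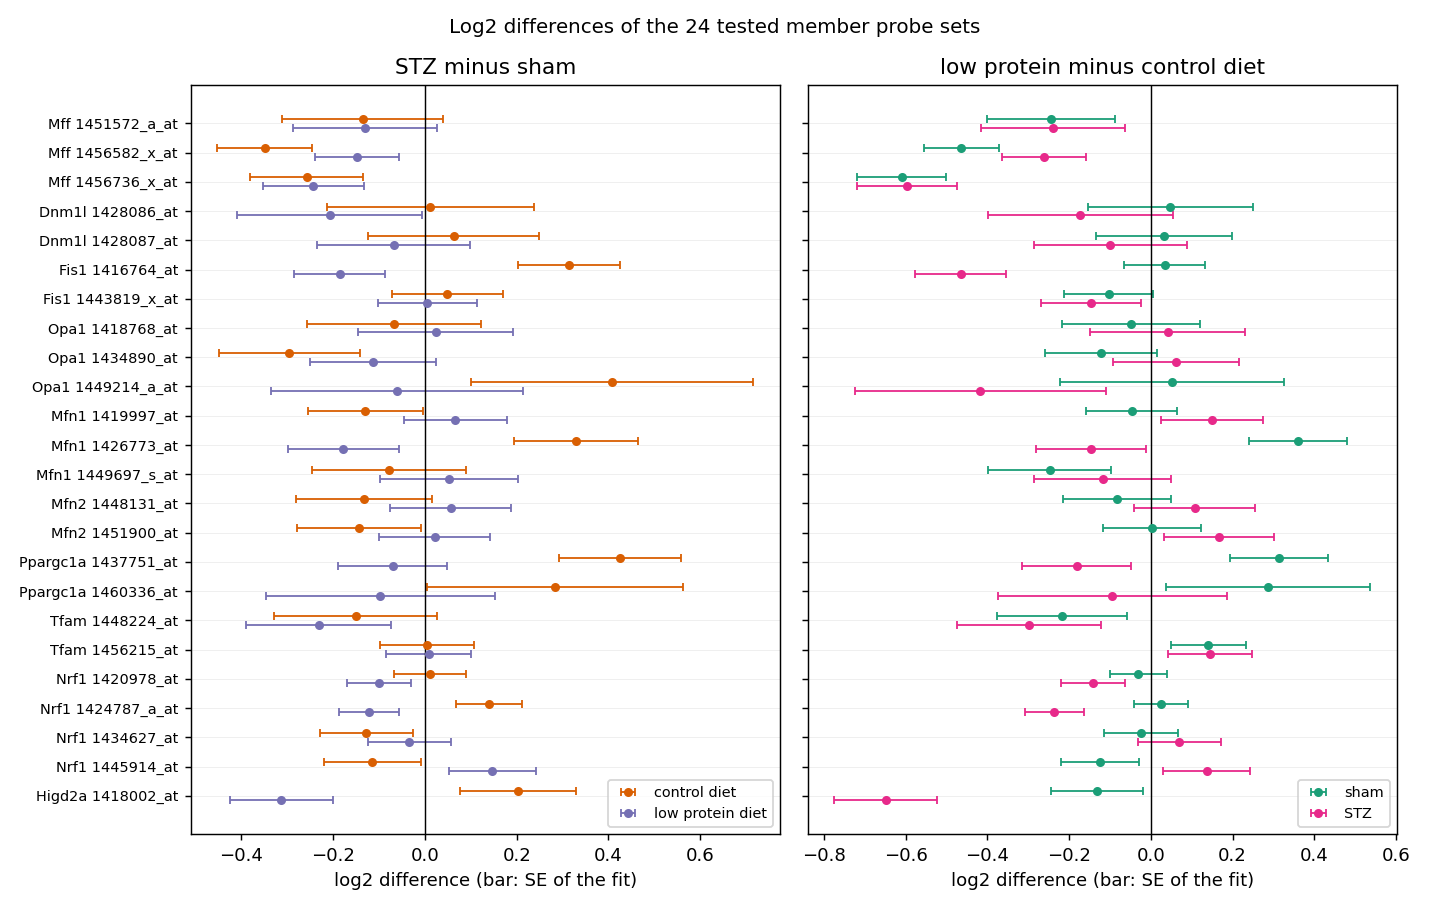
Log2 differences with the SE of the fit for the 24 tested member probe sets, as STZ minus sham within each diet (left) and low protein minus control diet within each injection (right). The Mff sets lie left of 0 in both panels. In the left panel Fis1 1416764_at, Mfn1 1426773_at, both Ppargc1a sets, Nrf1 1424787_a_at and Higd2a, with Opa1 1449214_a_at, Nrf1 1420978_at and both Dnm1l sets, lie right of 0 in the control diet and left of it in the low protein diet.

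Over the 24 member probe sets the median STZ difference was -0.03 in the control diet and -0.08 in the low protein diet, beside 0.00 and -0.02 over all tested probe sets. Of 9 members with several tested sets, 5 had all sets on one side of 0 for STZ in the control diet, and Mfn1, Nrf1, Opa1 and Tfam did not. The same 4 genes were mixed for the difference of the STZ effects. That difference was above 0 at 12 of the 24 member probe sets and below 0 at 12. The median diet difference over both injections was -0.05 for the members and -0.03 for all probe sets.

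The rest of the pathway was read from 6 lists of 78 distinct genes, of which 70 had a tested probe set (the brightest for each gene). None of the listed genes passed with limma over all probe sets in any STZ comparison. Counts of lower genes in the lists stand without a share over all genes, so nothing is read from those counts. Among 13 fission genes, Mtfp1, an inner membrane protein that promotes fission, was at -0.30 ± 0.10 after STZ in the control diet and 0.18 ± 0.09 in the low protein diet. The difference of these effects was 0.48 ± 0.14 with limma (unadjusted p = 0.005, adjusted p = 1), opposite in sign to Fis1 1416764_at. The list median was 0.03 for STZ in the control diet and -0.02 in the low protein diet.

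Among 16 tested fusion and cristae genes, 11 were lower after STZ in the control diet and 14 in the low protein diet, with medians of -0.05 and -0.11. Oma1, the stress protease that cleaves Opa1, was at -0.31 ± 0.12 over both diets with limma (unadjusted p = 0.0216, adjusted p = 1), and Yme1l1, the other Opa1 protease, at -0.22 ± 0.14. Among 15 tested biogenesis regulators the medians were 0.01 and 0.04. Nfe2l2, which encodes the oxidative stress factor NRF2, had a difference of the STZ effects of 0.71 ± 0.21 with limma (unadjusted p = 0.00747, adjusted p = 1), from -0.48 ± 0.16 in the control to 0.23 ± 0.14 in the low protein diet. Group means of Nfe2l2 were 8.77 in control sham, 8.28 in control STZ, 8.09 in low protein sham and 8.32 in low protein STZ arrays.

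Of 15 tested genes for transcription and replication of mitochondrial DNA, 10 were lower after STZ in the control diet and 11 in the low protein diet, with medians of -0.14 and -0.06. Tfb1m, a methyltransferase of the mitochondrial ribosomal RNA, was at -0.38 ± 0.10 over both diets with limma (unadjusted p = 0.00405, adjusted p = 1). Its group means were 8.48 in control sham, 8.01 in control STZ, 8.20 in low protein sham and 7.91 in low protein STZ arrays. Ssbp1, which binds single-stranded mitochondrial DNA, was at -0.34 ± 0.15. Mitophagy genes (7 tested of 10) had medians of -0.05 and -0.12. The autophagy receptor Sqstm1 had an STZ difference of 0.34 ± 0.20 with the control diet and of -0.35 ± 0.18 with low protein. The difference of these effects was -0.69 ± 0.27 with limma (unadjusted p = 0.0276, adjusted p = 1), the direction seen for Fis1 1416764_at and Higd2a.

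The genes around Higd2a, 5 tested of 7 listed, were lower after STZ in 4 of 5 cases in the control diet and 5 of 5 in the low protein diet, with medians of -0.08 and -0.21. Uqcc3, a complex III assembly factor, was at -0.21 ± 0.10 in the low protein diet with limma (unadjusted p = 0.0517, adjusted p = 1). Described without a test, all 5 were lower in low protein than in control pancreas over both injections, with a median of -0.37. Over all tested probe sets the median was -0.03, but the list takes only the brightest set of each gene, so the bases are unlike. The acinar markers were lower in low protein as well (group means of 15.02 and 14.88 in control sham and STZ, 14.64 and 14.56 in low protein sham and STZ), as were the hybridisation controls (11.67 in control diet, 11.21 in low protein), and their part in this list was not tested. Among the 5, Cox7a2, a subunit of cytochrome oxidase, averaged 13.10 in control sham, 12.99 in control STZ, 12.44 in low protein sham and 12.11 in low protein STZ arrays. Cox7a2l, a supercomplex assembly factor, averaged 10.68, 10.61, 10.48 and 10.26 in the same order. The fission list had a diet median of -0.06, fusion and cristae -0.11, biogenesis regulators -0.10, mitochondrial DNA genes -0.09 and mitophagy genes -0.17.

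**Figure D5:**
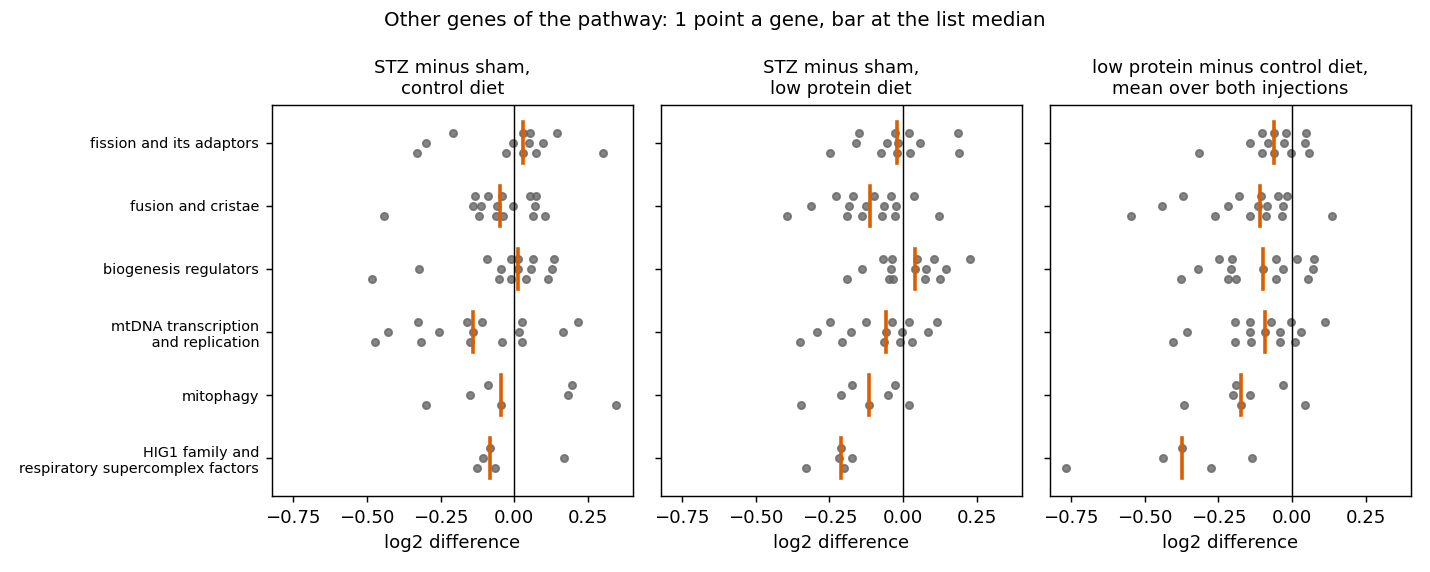
Log2 differences of the tested genes of 6 pathway lists, 1 point per gene with an orange bar at the list median, for STZ in each diet and for diet over both injections. List medians lie between -0.21 and 0.04 in the STZ panels, and the genes around Higd2a have the lowest diet median (-0.37).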

How the data were processed

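The 11 arrays carry the authors' deposited log2 signals of 45101 probe sets. Per the submitters' processing notes, RMA and Partek 6.5 were used, with no role given; that the scale is log2 was read from the values. The sources used here give neither a genome build nor the authors' test. RMA as usually run equalises array distributions, which removes a change shared by most transcripts.

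Gene symbols came from the GEO platform annotation, and 34958 probe sets with 1 symbol were kept. Of these, 27249 with a mean above 6.87 (quantile 0.25 of the means over all probe sets) entered the test. limma 3.58.1 in R 4.3.3 fitted 4 group means (lmFit, eBayes, two-sided), with Benjamini-Hochberg adjustment over the 27249 probe sets and a threshold of 0.05. Tables and plots were made with Python 3.11.15. The members and lists were chosen with earlier results of these data known. Values per array are given for each tested Mff probe set (the dim one as a range), the brightest probe set of the other members, and any with an unadjusted p under 0.05 in an STZ comparison; from each list, up to 3 genes with the smallest p in those comparisons could be named. Diet comparisons were used in that choice and are described without p-values. Simulated data with 200 changed probe sets served to test the fit. Alternatives were a replicate block, a fit of only the groups compared, trended and robust moderation, array weights, cyclic loess, median centring, 2 other filters, 1 probe set per gene, 3 covariates, and arrays left out singly and as a pair.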

Additional observations from a re-analysis of the deposited data

How the results depend on the processing

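No member probe set passed in any of the 4 STZ comparisons under any of the alternatives run, and the smallest adjusted p of a member was 0.335. The replicate block also gave 0 passing members in each STZ comparison. With it, the counts at an unadjusted p under 0.05 were 3 in the control diet and 1 in the low protein diet, without Mfn1 1426773_at and Mff 1456736_x_at respectively, and 2 and 5 for the mean and the difference as without it. These counts (4, 2, 2 and 5 as reported) also moved elsewhere. Array weights gave 6 for the low protein diet and 5 for the mean. With 1 probe set per gene only 10 member probe sets were tested, with 2 for the control diet, 1 for the mean and 3 for the difference. The stricter filter kept 16 member probe sets and gave 2 for the control diet, 1 for the low protein diet and 2 for the difference. Without both ends of the first component the count was 0 for the low protein diet and 4 for the mean. Cyclic loess, median centring, the lymphocyte covariate, trended moderation and a fit of only the groups compared each gave 1 for the low protein diet. The shares over all probe sets are not given under these settings, so nothing is read from these counts. Same-numbered arrays did not deviate together (5 of 15 pairs with a correlation over 0.1, 2 of 11 arrays closest to their own number), so the numbers were not taken as pairs. Signs of member STZ differences turned in 145 of 2168 combinations of probe set, comparison and setting; none of the differences at an unadjusted p under 0.05 turned. For diet, the count of member probe sets lower without overlap was 2 for sham, 6 for STZ and 1 for both joined, of 24. With 1 probe set per gene it was 1 for sham and 3 for STZ, of 10. With cyclic loess or median centring it was 0 for both joined. With arrays left out singly it ranged from 2 to 6 for sham (6 without control sham 2), from 6 to 14 for STZ (12 without control STZ 3, 14 without low protein STZ 3) and from 1 to 2 for both joined (2 without control sham 2 or control STZ 3). Leaving out an array can keep or raise such a count but cannot lower it. The share over all probe sets is not given under these settings, so nothing is read from the moves. What else moved these counts was not tested. Fits with a block, weights, covariates or other moderation leave these counts as they are and give no value of their own, and a fit of only the groups compared was not run where all 4 groups enter. Precision is limited by how few arrays there are. Over all probe sets, 1 passed for STZ in the control diet without control sham 2.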
